A study of Homo sapiens with 24 samples.

Results

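The comparison described here set m6A summit lists of HepG2 cells that expressed METTL14 with the substitution D312A against those of HepG2 cells that expressed EGFP. HepG2 is an established human liver cancer cell line. The study made 4 stable HepG2 lines with lentiviruses, which carried METTL14 D312A, METTL14 R298P, METTL14 WT or EGFP. Both D312A and EGFP cells therefore carried a lentiviral insert and had been selected with puromycin. The labels describe overexpression and name no loss of the cells' own METTL14, so the D312A protein was added to whatever the cells make themselves. The labels describe each line as transduced and selected cells, mention no cloning of single cells, and call its replicates biological. The series asks, by its title, whether cancer-associated METTL14 substitutions alter where RNA is methylated. RNA fragments bound by an anti-m6A antibody were sequenced (m6A-seq), and 1 list of peak summits, the single bases where enrichment peaked, was deposited for each of 3 replicates of each line. The members were chosen by label, as the 3 D312A and the 3 EGFP immunoprecipitated libraries, 6 of the 24 samples and 6 of the 12 immunoprecipitated ones. Their 6 lists held 75273 of the 155075 summits of the series.

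N6-methyladenosine (m6A) is the most common internal modification of mRNA. It is written by a complex in which METTL3 is the catalytic subunit and METTL14 its partner, which positions the RNA, with WTAP, VIRMA and other proteins as adaptors. FTO and ALKBH5 remove the mark, and YTH-domain proteins read it and steer splicing, decay and translation. The mark is known for long internal exons and the region around stop codons, in a short consensus that holds GAC or AAC with the methylated A in the middle.

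METTL14 itself came first, as the expressed gene. Its span (hg38 chr4:118685392-118715430, plus strand) held 9, 9 and 3 summits in D312A replicates 1, 2 and 3, against 1, 1 and 1 in EGFP replicates 1, 2 and 3. The groups did not overlap, at 7.0 ± 3.46 summits in D312A and 1.0 ± 0 in EGFP (SD, n = 3 each). The two-sided exact permutation p was 0.1, the smallest that 3 libraries against 3 allow, and 0.35 after Benjamini-Hochberg adjustment over the 7 single-value measures tested, so no measure of this kind could pass 0.05. In all, 3 regions of the span were present in 3 of 3 D312A and 0 of 3 EGFP libraries: chr4:118687999-118688001, chr4:118689441-118689453 and the single base 118692043, which lay 2608, 4055 and 6651 nt from the 5′ end of the span. All 3 were also present in 3 of 3 libraries of the METTL14 WT and R298P lines. Another 5 regions, from 118694523 to 118705680, had a summit in D312A replicates 1 and 2 and in 0 EGFP libraries.

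**Figure D1:**
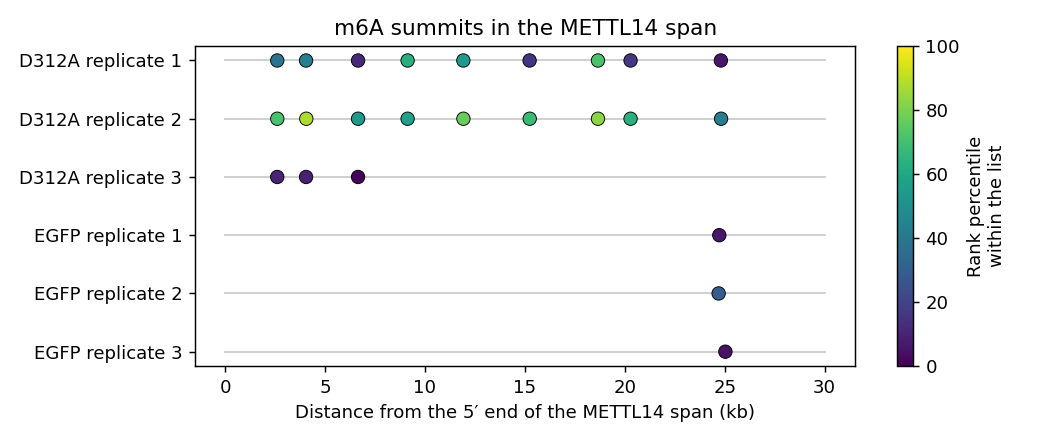
Each point is 1 summit in the METTL14 span, placed by its distance in kb from the 5′ end of the span, with 1 row per library, D312A above EGFP. Colour gives the rank percentile of the summit within its own list (100 is the best). D312A replicates 1 and 2 have 9 summits each along the span and D312A replicate 3 has 3 near the 5′ end, while each EGFP library has 1 summit near the 3′ end.

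The single EGFP summit of each library lay near the other end of METTL14, at positions 118710120, 118710087 and 118710424 in replicates 1, 2 and 3, and D312A replicates 1 and 2 had a summit there too, at 118710198 and 118710209. D312A replicate 3 ranked its 3 METTL14 summits low in its list, at percentiles 9.93, 9.11 and 1.04 (100 is the best-scoring summit). The same regions stood at percentiles 71.1, 87.6 and 53.7 in D312A replicate 2 and at 38.3, 42.3 and 11.5 in D312A replicate 1. When every list was cut to the 8669 top-ranked summits, as many as the shortest one holds, METTL14 kept 5, 9 and 0 summits in D312A and 0, 0 and 0 in EGFP, and the groups then overlapped. A summit needs enough transcript to be called, and the input libraries of D312A and EGFP were not analysed here, so more METTL14 RNA and more methylation per RNA cannot be told apart, here or at any gene below.

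The 6 libraries did not sort by line in which abundant transcripts they covered. Over 21 hepatocyte secreted protein genes such as ALB (albumin), APOB and TF (transferrin), D312A libraries held 99, 99 and 4 summits and EGFP libraries 63, 5 and 100. D312A replicate 3 and EGFP replicate 2 thus stood apart from the other 4 libraries. The same 2 libraries were lowest over 40 cytosolic ribosomal protein genes, at 41, 46 and 6 summits in D312A and 26, 4 and 29 in EGFP. They were also lowest in summits on the mitochondrial genome, with 25, 31 and 1 in D312A and 8, 0 and 16 in EGFP. APOB alone, the structural protein of low-density lipoprotein, had 31, 36 and 0 summits in D312A and 10, 0 and 32 in EGFP. WT and R298P libraries showed a range of this kind as well, with replicate 1 the highest in both lines. The secreted protein genes held 119, 38 and 30 summits in WT replicates 1, 2 and 3, and 93, 16 and 21 in those of R298P. The part of this range in the results below was not tested. The difference in list length and the counts of regions and genes are also given without D312A replicate 3 and EGFP replicate 2. The 3 gained METTL14 regions are in D312A replicate 3 and absent from EGFP replicate 2 by the rule that calls a region gained, so that call does not bear on the labels. Presence in 3 of 3 WT and 3 of 3 R298P libraries, which uses neither line, picks the METTL14 regions starting at 118687999, 118689441, 118692043 and 118694523. D312A replicate 3 had the first 3 of these and not the last, and EGFP replicate 2 had none. What this means for the labels was not tested. Whether either library holds RNA of another sample could not be settled from the lists, and every count that asks for 3 of 3 and 0 of 3 libraries rests on both labels.

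**Figure D2:**
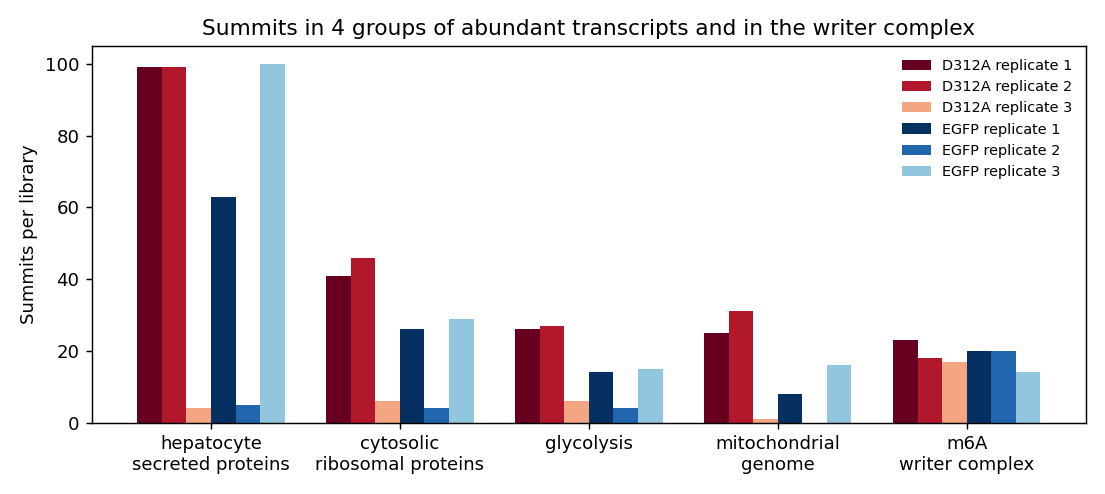
Bars give the number of summits per library (vertical axis) in 4 groups of abundant transcripts and in the m6A writer complex, with the 3 D312A libraries in red shades left of the 3 EGFP libraries in blue shades. D312A replicate 3 and EGFP replicate 2 have 4 and 5 summits in the secreted protein genes, the other 4 libraries 63 to 100.

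Hepatocyte identity was visible in the lists: 10 of the 11 hepatocyte markers had a summit. Of the markers of other cell types, 1 of 12 fibroblast and stellate cell genes (PDGFRB), 2 of 13 blood and macrophage genes and 2 of 9 endothelial genes (CDH5 and LYVE1) had any summit. The summed summits of the fibroblast list were 0, 0 and 0 in D312A and 1, 0 and 1 in EGFP, and COL1A1, COL3A1 and DCN were at 0 in all 6 libraries.

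D312A lists were shorter than EGFP lists. They held 12357, 8669 and 12350 summits in D312A replicates 1, 2 and 3, against 15373, 13859 and 12665 in EGFP replicates 1, 2 and 3. Every D312A library was below every EGFP library, with means of 11125 ± 2127 in D312A and 13966 ± 1357 in EGFP (SD, n = 3 each; difference −2840, two-sided exact permutation p = 0.1, adjusted p = 0.35). Without D312A replicate 2, the shortest list, the difference was −1612 (exact permutation p = 0.2), and without D312A replicate 3 and EGFP replicate 2 it was −3506. Read numbers are not known for these lists, so list length and sequencing depth cannot be told apart.

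Where the summits lay within genes differed little. Protein-coding genes held 85.9% ± 0.544 of the D312A summits and 85.3% ± 1.05 of the EGFP summits (exact permutation p = 0.5). Long non-coding RNA genes held 3.49% in D312A and 3.91% in EGFP (exact permutation p = 0.6). Of summits in genes with a known strand, 15.3% ± 0.744 in D312A and 16.2% ± 0.287 in EGFP lay within 1000 nt of the 3′ end of the span (SD, n = 3 each; exact permutation p = 0.3, adjusted p = 0.525). At the other end, within 1000 nt of the 5′ end, the shares were 10.6%, 8.67% and 9.47% in D312A and 9.45%, 8.46% and 7.29% in EGFP. These groups overlapped, at 9.59% ± 0.979 and 8.40% ± 1.08 (SD, n = 3 each; exact permutation p = 0.2, adjusted p = 0.467). Cut to equal length, the lists gave 8.30% ± 0.826 in D312A and 6.14% ± 0.806 in EGFP, which did not overlap, with an exact permutation p of 0.1 and an adjusted p of 0.7. Gene spans run from the first to the last annotated base and do not separate exons, introns and untranslated regions.

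Libraries of 1 line were no more alike than libraries of different lines. On average 61.5% of the summits of one D312A library had a summit of another D312A library within 100 nt (range of the 3 pairs 60.8% to 62.0%). For EGFP pairs it was 63.1% (61.2% to 65.2%). Between D312A and EGFP libraries it was 63.8% for pairs with the same replicate number (58.5% to 67.6%) and 61.7% for the other pairs (57.0% to 64.4%). The ranges overlap, and the pairs share libraries, so no test was made.

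Merging summits within 100 nt gave 26584 regions in the 6 lists, of which 4457 were present in all 6 libraries. Lost regions, present in 0 of 3 D312A and 3 of 3 EGFP libraries, numbered 311, or 1.17% of all regions. Gained regions, present in 3 of 3 D312A and 0 of 3 EGFP libraries, numbered 47, or 0.177%. Of the 5321 regions of all 3 D312A libraries 0.883% were gained, and of the 7250 regions of all 3 EGFP libraries 4.29% were lost. Regions in exactly 3 of the 6 libraries numbered 2888, and 12.4% of them fell wholly into 1 line. With lists cut to equal length it was 9.27% of 2018. Of the 20 ways to pick 3 of the 6 libraries, only all D312A and all EGFP fall wholly into 1 line. Single regions cannot be tested with 3 libraries against 3.

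The excess of lost over gained regions moved with list length. With every list cut to 8669 summits there were 107 lost (0.582% of 18387 regions) and 80 gained regions (0.435%). Leaving out D312A replicate 2 alone gave 412 lost and 219 gained regions, under a rule that then asks for 2 D312A and 3 EGFP libraries. Doing so and also cutting the lists to 12350 summits gave 274 lost and 350 gained, so the excess turned round when both were changed. Without D312A replicate 3 and EGFP replicate 2 there were 1181 lost and 258 gained, and 484 and 375 with equal length as well. Between D312A replicate 3 and EGFP replicate 2 alone, 5543 regions were absent from D312A and 4034 absent from EGFP. Names of the deposited lists set replicate 1 apart from replicates 2 and 3: replicate 1 alone gave 6105 lost and 3093 gained regions, and replicates 2 and 3 gave 1178 and 269.

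**Figure D3:**
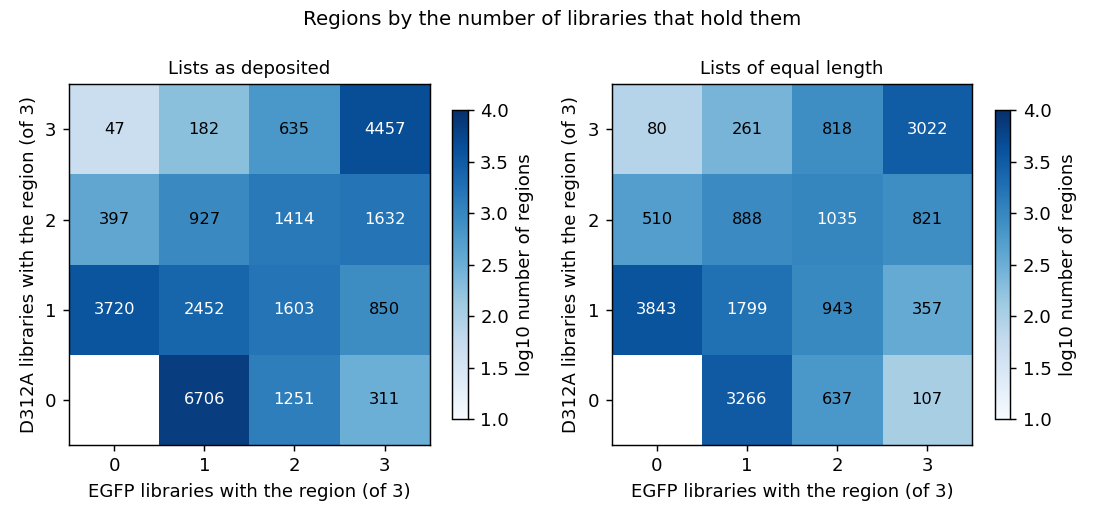
Numbers of merged regions by how many D312A libraries (vertical axis, 0 to 3) and EGFP libraries (horizontal axis, 0 to 3) hold them, for the lists as deposited (left) and cut to equal length (right). Shade is log10 of the number. The gained corner (3 D312A, 0 EGFP) holds 47 and 80 regions and the lost corner (0 D312A, 3 EGFP) 311 and 107.

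Gained and lost regions were mostly low in the lists. The lost regions had a median rank percentile of 39.0 over the 3 EGFP lists, against 74.2 for regions present in all 6 libraries. Among EGFP regions below the 30th percentile, between 12.7% and 13.3% of each bin of 10 percentiles were lost. That share was 3.60% between the 50th and 60th percentile and 0.131% above the 90th, where 1 of 764 regions was lost. Only 8 of the 311 lost regions averaged the 75th percentile or better. For 48 of the 311 a D312A summit lay within 200 nt, and for 166 the nearest one was over 1000 nt away.

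**Figure D4:**
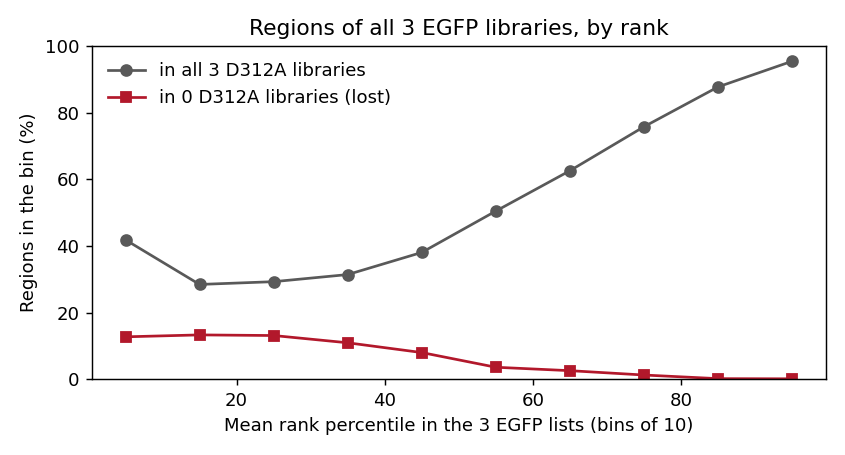
Regions present in all 3 EGFP libraries, in bins of 10 by their mean rank percentile in the EGFP lists (horizontal axis, 100 is the best), with the percentage of each bin that is in all 3 D312A libraries (grey) or in none of them (red). The lost share falls to 0.131% in the top bin, where 95.4% of the regions are in all 6 libraries.

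Gained regions lay nearer to gene starts than other D312A regions, by count: 8 of the 36 gained regions in genes with a known strand (22.2%) were within 1000 nt of the 5′ end of the span, against 5.71% of the regions in 3 of 3 D312A libraries and 6.09% of the lost regions. Regions in 3 D312A and 1 or 2 EGFP libraries, next to the rule, stood at 11.7%. At the 3′ end the order was the opposite, with 2 of the 36 gained regions (5.56%) within 1000 nt, against 16.7% of the regions in 3 of 3 D312A libraries and 19.6% of the lost regions. The gained regions are among the D312A regions they are set beside, so these are descriptions with no test. The 8 near a 5′ end were in ARIH1 (a ubiquitin ligase), VAMP8 (a SNARE protein of vesicle fusion), PPP4R3A (a regulatory subunit of protein phosphatase 4), SEC23A (a COPII coat subunit), RAB5C (an endosomal GTPase), NMT1 (an N-myristoyltransferase), SIPA1L1 and the antisense RNA STXBP5-AS1. At equal length 6 of the 8 were not called, ARIH1 and PPP4R3A being the exceptions. Several of them ranked low: NMT1 averaged the 2.38th percentile, RAB5C the 4.65th and VAMP8 the 16.6th.

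For 5 protein-coding genes whose gained or lost region fell inside exactly 1 RefSeq promoter window (250 bases before to 50 after the gene start), 30 bases around the middle of the region are printed, since the gene starts are where the sequence under a changed summit could be read. They run 5′ to 3′ on the gene's own strand, from RefSeq on GRCh38.p14, with GAC and AAC in capitals. The PPP4R3A region was gained and the other 4 were lost.

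PPP4R3A: tccctgcgctcccgccacctcggcAACtcc
DYRK1A: gaggagaGACtgagcaggctgcggcgcggc
ENO2: tctctcagcgccgccgtcgccaccgccacc
PTPRG: gcccccagtccccaAACtgtcccagtagag
UTP14C: gagaaaaagatGACcccagGACatttgctg

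The PPP4R3A bases are chr14:91510431-91510460 (minus strand), with the middle of the gained region at −136 from the gene start. ENO2, the neuronal form of the glycolytic enzyme enolase, has its lost region centred 26 bases after the start (chr12:6914591-6914620, plus strand). DYRK1A, a protein kinase (chr21:37367462-37367491), PTPRG, a receptor tyrosine phosphatase (chr3:61561349-61561378), and UTP14C (chr13:52024610-52024639) are on the plus strand too, with their regions centred at −80, −207 and −66 from the start used in the promoter table. The UTP14C region also lies inside the longer span of ALG11, an enzyme of glycan assembly, and is counted as ALG11's in the gene counts. GAC or AAC, which cannot overlap each other, occurred on the gene's strand in 4 of these 5 windows. Of all 767 regions in exactly 1 promoter window, 46.4% had either on the gene's strand within 30 bases and 72.8% on one strand or the other. That share includes windows of lncRNA genes. In all, 9 called regions fell in such a window, and those of lncRNA genes, some with neither on the gene's strand, are not among the 5. The shares are therefore not like for like, and no test was made. The ENO2 window holds neither on the gene's strand, and a match of 3 letters does not make a methylated site.

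Lost regions were assigned to 274 genes (3.04% of the 9025 genes with a summit in the 6 lists) and gained regions to 39 genes (0.432%). Without D312A replicate 3 and EGFP replicate 2 there were 988 and 216 such genes. Of the 274 genes, 139 (50.7%) kept a summit in every D312A library, while 81 had 0 in all 3. Of the 39 genes with a gained region, 31 had a summit elsewhere in every EGFP library and 2 had none in any.

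The best-ranked lost region lay in FBXL19, an F-box protein that also recognises CpG islands, at chr16:30948230-30948244, 546 nt from the 3′ end of the span. Its rank percentiles were 95.8, 83.8 and 91.6 in EGFP replicates 1, 2 and 3. A gained FBXL19 region lay only 135 nt away, at chr16:30948082-30948095, with percentiles of 67.1, 86.1 and 87.3 in D312A replicates 1, 2 and 3. The gene as a whole had 7, 4 and 5 summits in D312A and 5, 4 and 3 in EGFP, so its summit count overlapped between the lines. HS6ST1, a heparan sulfate 6-O-sulfotransferase, showed the same arrangement. Its gained region at chr2:128268126-128268128, the best-ranked gained region at a mean percentile of 93.1, lay 214 nt from a lost region at chr2:128268342-128268348. The lncRNA gene LOC105377616 had such a pair 153 nt apart, and ANKRD11, a chromatin regulator, had both kinds of region further apart. FBXL19 lost both calls when summits were merged within 200 nt.

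Further high-ranked lost regions followed. The transcription factor gene CUX1 lost chr7:102249233-102249355 (mean percentile 81.9), with 2, 2 and 2 summits over the gene in D312A and 4, 6 and 3 in EGFP. PARD6G, a cell polarity protein, lost chr18:80157887-80157905 (80.5), which was in 3 of 3 WT and 0 of 3 R298P libraries. INF2, a formin that builds actin filaments, lost chr14:104704312-104704318 (78.9), and MYO9B, a myosin, lost chr19:17101832-17101843 (73.1). Both of those regions were also in 3 of 3 WT and 0 of 3 R298P libraries. F11R, the tight junction protein JAM-A, lost its single region at chr1:160998274-160998288 (75.2), with 0, 0 and 0 summits in D312A and 1, 1 and 1 in EGFP. PERP, a desmosomal p53 target, had 0, 0 and 0 summits in D312A and 2, 2 and 1 in EGFP, and its lost region at chr6:138091990-138091994 (72.4) was in 3 of 3 WT and 0 of 3 R298P libraries.

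The other named lost regions were in CIC, a transcriptional repressor downstream of receptor kinases (chr19:42295243-42295246), FZD3, a Wnt receptor (chr8:28503024-28503051), BHLHA15, a transcription factor of secretory cells (chr7:98213210-98213217), SPRY4, an inhibitor of receptor kinase signalling (chr5:142314941-142314945), and TUT7, an RNA uridylyltransferase (chr9:86353129-86353148). Their mean percentiles lay between 72.1 and 77.3. The TUT7 region was present in 0 WT and 0 R298P libraries. All 12 named lost regions were called with lists of equal length as well. They were named for high ranks in the EGFP lists, and the cut keeps high-ranked summits, so this is no separate support. Those of FBXL19, CUX1 and BHLHA15 were not called when summits were merged within 200 nt.

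CD24, a glycosylphosphatidylinositol-anchored surface protein, had a gained region and no EGFP summit anywhere in its span. It had 1, 1 and 1 summits in D312A and 0, 0 and 0 in EGFP, at chr6:106971309-106971313 with percentiles of 90.6, 72.9 and 61.0 in D312A replicates 1, 2 and 3. The nearest EGFP summit was 56955 nt away, and the region was in 3 of 3 R298P libraries and 1 of 3 WT libraries. Other named gained regions lay in KMT2B, a histone H3 lysine methyltransferase, at chr19:35719926-35719933 (1926 nt from the 5′ end, 2 of 3 WT and 0 of 3 R298P libraries), and in ARIH1 at chr15:72474616-72474661 (308 nt from the 5′ end). CDK17, a cyclin-dependent kinase, gained chr12:96280300-96280311, the zinc finger gene ZNF714 gained chr19:21116979-21116982 and NGRN, a mitochondrial ribosome factor, gained chr15:90271907-90271908. Those of FBXL19, CDK17, NGRN and ARIH1 were not called when summits were merged within 200 nt, since an EGFP summit lay within 152 nt of each.

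The R298P and WT lists were not used to choose these regions. Of the 311 lost regions, 24.8%, 29.3% and 44.1% had a summit within 100 nt in R298P replicates 1, 2 and 3, against 66.2%, 54.3% and 66.2% in WT replicates 1, 2 and 3. The R298P and WT libraries did not overlap, at 32.7% ± 10.1 and 62.3% ± 6.87 (SD, n = 3 each), while 3 of 3 EGFP libraries held them all by construction. Regions in 3 EGFP libraries and 1 D312A library, which came next to the rule, were held at 52.2% ± 7.17 in R298P and 75.8% ± 4.61 in WT. Regions of all 6 libraries stood at 90.8% ± 3.00 in R298P and 97.1% ± 0.841 in WT. In all, 124 lost regions (39.9%) were in 0 R298P libraries and 86 (27.7%) in 3 of 3 WT libraries. The gained regions were held at 59.6% ± 6.38 in R298P and 56.0% ± 8.86 in WT, and 7 of the 47 were in all libraries of both lines. R298P lists were on average shorter than WT lists, and neither the part of list length nor the difference between R298P and WT was tested.

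Counted per gene, D312A libraries had fewer summits than EGFP libraries without overlap at 261 genes (2.89% of 9025) and more at 13 (0.144%). Over all 9025 genes the median difference in mean summits was −0.333, with a lower D312A mean at 5123 genes and a higher one at 1959. At equal length 78 of 7290 genes had fewer (1.07%) and 46 had more (0.631%), and 41 and 6 genes were called in the same direction by both. Without D312A replicate 3 and EGFP replicate 2 there were 908 with fewer and 113 with more, with replicate 1 alone 3068 and 1371, and with replicates 2 and 3 869 and 117. Of the 261 genes, 76 had 0 summits in every D312A library and 1 in every EGFP library, the smallest difference that avoids overlap.

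Among genes called at both list lengths, ZNF516, a zinc finger transcription factor, differed most, with 4, 3 and 5 summits in D312A replicates 1, 2 and 3 and 7, 6 and 6 in EGFP replicates 1, 2 and 3. PIP5K1C, a kinase that makes phosphatidylinositol 4,5-bisphosphate, had 6, 4 and 5 in D312A and 7, 7 and 7 in EGFP. FTCD, a liver enzyme of histidine and folate metabolism, had 1, 1 and 2 in D312A and 4, 3 and 3 in EGFP. In each of these 3 genes the highest D312A library was 1 summit below the lowest EGFP library.

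PISD, the mitochondrial enzyme that makes phosphatidylethanolamine, had 0, 0 and 0 summits in D312A and 2, 2 and 2 in EGFP, with a lost region at chr22:31619648-31619654. NRSN2 had 0, 0 and 0 in D312A and 1, 3 and 2 in EGFP. GOLGA3, a Golgi protein, had 1, 2 and 3 in D312A and 4, 4 and 4 in EGFP. SH3PXD2B, an adaptor of invasive cell protrusions, had 3, 3 and 3 in D312A and 5, 6 and 4 in EGFP. Each of these 7 genes differed by −2.0 or −2.33 summits in mean. They were chosen for counts that do not overlap, which by itself fixes the two-sided exact permutation p at 0.1. That p is therefore no test of these genes.

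Among genes with more summits in D312A, PCMTD2 had 3, 3 and 4 summits in D312A and 2, 1 and 2 in EGFP. NAB1, a co-repressor of EGR transcription factors, had 2, 2 and 3 in D312A and 1, 1 and 1 in EGFP, and the zinc finger gene ZNF791 had the same counts in every library. PCSK6, a proprotein convertase, had 2, 2 and 2 in D312A and 1, 1 and 1 in EGFP. With CD24 and PIK3CA these are the 6 genes called higher at both lengths, and none of them differed by more than 1.67 summits in mean. The 13 genes with more summits summed to 33, 31 and 29 in D312A, 26, 23 and 28 in R298P and 29, 24 and 25 in WT, against 11, 9 and 10 in EGFP. METTL14, overexpressed in all 3 of those lines, is among the 13. Without it the other 12 genes summed to 24, 22 and 26 in D312A, 16, 17 and 19 in R298P and 18, 15 and 18 in WT, against 10, 8 and 9 in EGFP, where the D312A and EGFP values follow from the rule. The 261 genes with fewer summits summed to 281 ± 35.0 in D312A, 421 ± 64.9 in R298P and 540 ± 44.9 in WT, against 676 ± 27.9 in EGFP (SD, n = 3 each). Here too the gap between D312A and EGFP follows from the rule, and the place of R298P and WT between them was not tested.

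**Figure D5:**
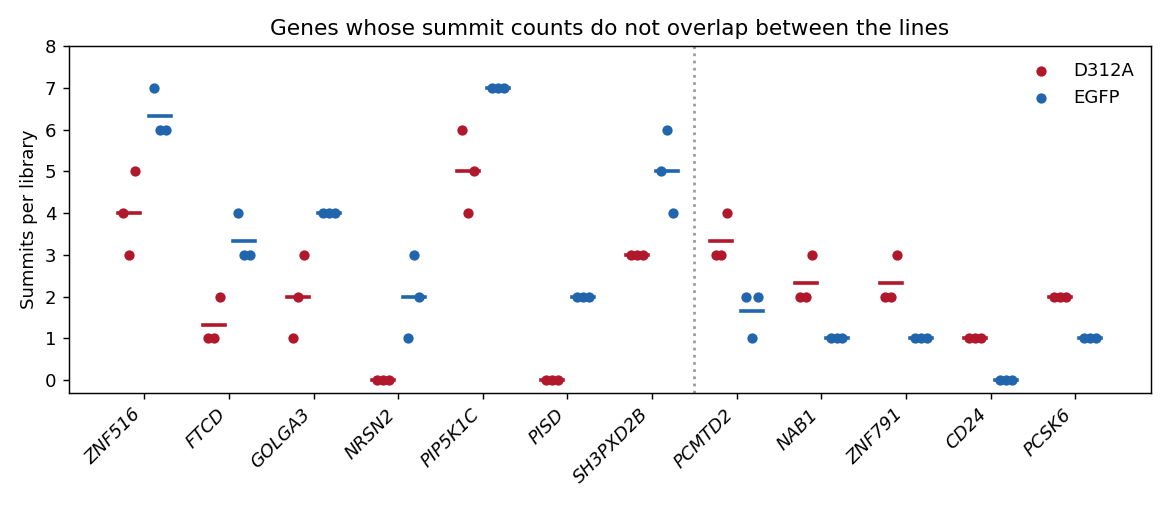
Summits per library (vertical axis) of 7 genes with fewer and, right of the dotted line, the 5 genes with more summits in D312A, named by rule among genes called at both list lengths. Points are libraries, D312A in red left of EGFP in blue, and bars are means of 3. PISD and NRSN2 have 0 summits in every D312A library and CD24 has 0 in every EGFP library.

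Within the m6A machinery, most writer subunits had overlapping counts. Of the 8 members, 7 had a summit assigned to them. METTL14 had more summits (0.144% over all genes). VIRMA, the scaffold that directs the complex to stop codons and 3′ untranslated regions, had fewer (2.89% over all genes), with 1, 1 and 1 summits in D312A and 4, 3 and 2 in EGFP. The other counts overlapped. The catalytic subunit METTL3 had 0, 0 and 1 summits in D312A and 1, 0 and 1 in EGFP. WTAP, whose span overlaps another gene, had 3, 4 and 3 over its whole span in D312A and the same 3, 4 and 3 in EGFP. VIRMA overlapped between the lines at equal length.

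Of the 15 erasers and readers, 2 had fewer summits without overlap (2.89% over all genes) and 0 had more (0.144%). FTO, the demethylase, had 0, 0 and 0 in D312A and 1, 1 and 1 in EGFP, through a lost region at chr16:53826319-53826323 (mean percentile 66.8, 3 of 3 WT libraries), and it was called at equal length too. YTHDF3, a cytoplasmic reader, had 5, 5 and 5 in D312A and 6, 6 and 6 in EGFP. At equal length YTHDF3 overlapped and its means turned round, to 5.0 in D312A and 4.67 in EGFP. The eraser ALKBH5 had 0, 0 and 0 in D312A and 0, 1 and 0 in EGFP. Readers with overlapping counts included YTHDF1, at 5, 3 and 5 in D312A and 5, 5 and 5 in EGFP, and YTHDF2, at 2, 2 and 4 in D312A and 3, 3 and 3 in EGFP. The median difference was −0.333 in both lists of the machinery, the same as over all genes.

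Some feedback inhibitors of receptor tyrosine kinase and MAP kinase signalling had lost regions. Gained regions were in 0 of them, against 0.432% over all genes, and 0 is near that background for a list of this size. In the Sprouty, SPRED and DUSP list, 15 of 19 genes had a summit, 4 had a lost region (3.04% over all genes) and 3 had fewer summits without overlap (2.89% over all genes). The shares over all genes are not matched for summits per gene. SPRY4 had 3, 2 and 3 summits in D312A and 4, 7 and 7 in EGFP, with a second lost region at chr5:142311265-142311300. DUSP7, an ERK phosphatase, had 0, 0 and 0 in D312A and 2, 2 and 1 in EGFP, with a lost region at chr3:52050925-52050931 that was in 3 of 3 WT libraries. DUSP10, a p38 and JNK phosphatase, had 1, 0 and 0 in D312A and 3, 3 and 2 in EGFP. SPRY2 lost 1 region, 150 nt from a D312A summit, but its counts of 1, 1 and 2 in D312A and 3, 2 and 3 in EGFP overlapped. DUSP7 alone of these was also called by count at equal length, and the median difference of the list was −0.333, as over all genes. Of the lost regions of this list, those of DUSP7 and, at chr5:142314941-142314945, of SPRY4 were called at equal length, and the others were not.

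Of the liver transcription factors, 3 of 17 genes with a summit had a lost region, and of the lipid and xenobiotic nuclear receptors 3 of 15, against 3.04% over all genes. The share over all genes is not matched for summits per gene, for these or any other lists here. A gene with more summits has more regions that can be lost, so these shares show no concentration in a list. Gained regions were in 0 genes of either list, against 0.432% over all genes. NR5A2, a nuclear receptor of bile acid synthesis, had 0, 0 and 0 summits in D312A and 4, 3 and 1 in EGFP, with its lost region at chr1:200174498-200174526. FOXA2, a pioneer factor of the liver, had 2, 1 and 2 in D312A and 3, 4 and 3 in EGFP, with a D312A summit 152 nt from its lost region. HNF4A, a master regulator of hepatocyte genes, lost chr20:44430556-44430559, and its counts overlapped at 7, 6 and 5 in D312A and 9, 9 and 7 in EGFP. Of the nuclear receptors that sense lipids and drugs, RXRB, a partner of many of them, had 0, 0 and 0 in D312A and 2, 1 and 1 in EGFP, and it alone of these 2 lists was also called by count at equal length. NR1I2, the drug sensor PXR, had 0, 0 and 0 in D312A and 1, 1 and 1 in EGFP. PPARA, the receptor that drives fatty acid oxidation, lost chr22:46239041-46239066, in 3 of 3 WT and 0 of 3 R298P libraries, but its counts overlapped at 5, 1 and 6 in D312A and 10, 8 and 6 in EGFP.

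Growth signalling gave a mixed picture. IRS1, the docking protein of the insulin receptor, had 7, 6 and 6 summits in D312A and 8, 10 and 9 in EGFP, with a lost region at chr2:226795687-226795725. INSR, the insulin receptor, lost chr19:7115483-7115569 with overlapping counts of 3, 1 and 2 in D312A and 5, 3 and 3 in EGFP. PIK3CA, the catalytic subunit of PI3 kinase, went the other way, with 2, 2 and 2 in D312A and 1, 1 and 1 in EGFP and a gained region at chr3:179198942-179198960. It was called at equal length. Of the 16 AKT and mTOR genes with a summit, 0 had fewer, against 2.89% over all genes, so 0 is near the background for a list of this size. In the Wnt list, 4 of 25 genes with a summit had a lost region, against 3.04% over all genes: FZD3, the destruction complex scaffold APC, the co-activator BCL9L and the inhibitor NKD1. FZD3 alone of them was called by count, with 1, 0 and 1 in D312A and 2, 2 and 2 in EGFP. Of these 4 lost regions, only that of FZD3 was also called with lists of equal length. A D312A summit lay 128 nt from the lost region of APC and 113 nt from that of NKD1, which ranked low, at a mean percentile of 6.58. The counts of IRS1 and FZD3 overlapped at equal length. A D312A summit lay 180 nt from the lost region of IRS1 and 145 nt from that of INSR, and neither region was called at equal length.

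In the TGF-beta and BMP list, BMPR2, a type II BMP receptor, had a lost region, and SMURF1, a ubiquitin ligase for SMADs, had 0, 0 and 0 summits in D312A and 2, 2 and 1 in EGFP. SMAD5 had 1, 1 and 1 in D312A and 2, 3 and 2 in EGFP, and turned to more in D312A with lists of equal length. Chromatin enzymes included lost regions in KMT2A and ASH1L and the gained region in KMT2B, among 19 histone methyltransferases with a summit. EP300, a histone acetyltransferase, had 6, 6 and 7 summits in D312A and 9, 8 and 9 in EGFP. Single lost regions were in TARBP2 (a Dicer partner, 0, 0 and 0 in D312A and 1, 1 and 1 in EGFP), KLF10 (1 of 13 KLF genes with a summit), MLXIP (1 of 11 in the MYC, MAX and MLX network) and NPC1L1, a cholesterol transporter (1 of 14 cholesterol genes). Among 33 ubiquitin-specific proteases with a summit, USP22 and USP31 had a lost region, and USP43 had 0, 0 and 0 in D312A and 1, 1 and 1 in EGFP. Over all genes, 3.04% had a lost region, 0.432% a gained region and 2.89% fewer summits without overlap. A list of this size holds few or none at those shares. The counts of EP300, SMURF1, TARBP2 and USP43 overlapped at equal length. A D312A summit lay 193, 179 and 108 nt from the lost regions of ASH1L, NPC1L1 and USP22, which were not called when summits were merged within 200 nt.

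The other lists held 0 gained regions, 0 lost regions and 0 genes with non-overlapping counts in the lists as deposited. At the shares over all genes (3.04% with a lost and 0.432% with a gained region, 2.89% with fewer and 0.144% with more summits), 0 is near the background for lists of this size. These were the secreted protein genes (17 of 21 with a summit), ribosomal proteins (29 of 40), glycolysis (12 of 20), fatty acid synthesis (16 of 20), fatty acid oxidation (8 of 18), bile acid and drug metabolism (6 of 20), the Hippo pathway (17 of 22), Notch (11 of 17), p53 targets (16 of 20), AP-1 and immediate early genes (16 of 21), suppressors of cytokine signalling (8 of 8), the interferon response (8 of 26) and the unfolded protein response (14 of 19). The same held for G1/S genes (11 of 21), mitotic genes (9 of 20), inflammation (8 of 23), SR splicing factors (8 of 14), CCR4-NOT subunits (10 of 16), TRAF adaptors (11 of 13), other RNA methyltransferases (12 of 16), oncofetal liver genes (9 of 14) and nuclear and imprinted lncRNAs (2 of 11). With lists of equal length, 1 gene each had fewer summits without overlap among the suppressors of cytokine signalling, Notch and G1/S genes, and 1 each had more in bile acid and drug metabolism and among other RNA methyltransferases. In the secreted, ribosomal and glycolysis lists, 1 library of each line was far below the others.

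DAB2, an endocytic adaptor, lost more than 1 region and had no D312A summit; it was chosen after its values were seen. It had 0, 0 and 0 summits in D312A, 0, 0 and 2 in R298P and 2, 2 and 3 in WT, against 3, 2 and 3 in EGFP, with lost regions at chr5:39382622-39382738 and chr5:39376881-39376896. Those regions ranked low in the EGFP lists, at mean percentiles of 23.1 and 17.1, and the gene's counts overlapped when the lists were cut to equal length. The other 5 genes with 2 lost regions were CSRNP1, FAM200A, MAGEF1, SPRY4 and ZNF823.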

How the data were processed

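m6A-seq was measured in 3 D312A and 3 EGFP immunoprecipitated HepG2 libraries, and WT and R298P lists were read only to look up regions and genes. The authors deposited 1 list of summits per library, each with a −log10 p or q value, per the lists themselves; the kind of value, the calling threshold, the matching input and the read depth were not found in the labels, so no counting interval could be set. MACS2 2.1.2 and STAR 2.7.9a are among the tools, and hg38 is the build, in the submitters' processing notes, which give no settings here. The deposited expression table of the series was not used; 18 of its columns hold values per library under codes that match no sample label.

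Summits of the 6 lists were merged within 100 nt with Python 3.11.15 and numpy 2.4.6. 1 or more summits of a library inside a region made it present there. Summits and regions took the name of a RefSeq (GRCh38.p14) protein-coding gene where exactly 1 such span held them, otherwise of a lncRNA gene by the same rule; the lists carry no strand, so overlapping antisense transcripts cannot be told apart. Of 9025 genes with a summit, 81.3% had a strand in the promoter table. Rank percentiles are within each list. Values per library were compared with two-sided exact permutation tests over all 20 ways to split the 6 libraries. The scripts were tested on simulated data. The labels call the replicates biological; each group is 1 transduced line, so the spread between independently made lines is not in the p-values.

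The members, the 42 gene lists and the tests were chosen with earlier results of these data known. Named were METTL14 and the writer complex, the 12 lost and 8 gained regions with the best mean percentile (at most 1 per gene, in 1 gene), the 8 genes with the largest fall and 5 with the largest rise among those called at both list lengths, and list members with a gained or lost region or non-overlapping counts. Of these and the promoter windows, 3 items are not reported here.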

Additional observations from a re-analysis of the deposited data

How the results depend on the processing

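The direction of the difference in summits per library (−2840, or −3490.67 to −1612 with 1 library left out), METTL14 summits (6.0, or 5.0 to 8.0) and the share near the 3′ end was the same under every alternative run, and none could pass 0.05. The counts moved. Values of gained regions, lost regions, genes with a gained region, genes with a lost region, genes with fewer and genes with more summits are given in that order, where they moved by over 1.5 times. As reported they were 47, 311, 39, 274, 261 and 13. Lists of equal length gave 80, 107, 73, 91, 78 and 46. The 5000 best summits of each list gave 51 lost regions, 46 genes with a lost region, 33 genes with fewer and 36 with more. Merging within 200 nt gave 31 gained regions and 25 genes. Replicate 1 alone gave 3093, 6105, 2239, 3709, 3068 and 1371, and replicates 2 and 3 alone 269, 1178, 233, 987, 869 and 117. With 1 library left out the ranges were 91 to 219, 412 to 853, 83 to 190, 357 to 718, 331 to 667 and 38 to 121, as fewer libraries make the rule easier to meet; the highest gained count came without D312A replicate 2 and the highest lost count without EGFP replicate 3. Alternatives chosen after seeing the data left out D312A replicate 3 and EGFP replicate 2 (258, 1181, 216, 988, 908 and 113; at equal length 375 gained regions, 484 lost regions, 317 genes with a gained region and 245 with more summits), used those 2 alone (4034, 5543, 2779, 3623, 2824 and 1841) or left out D312A replicate 2 at equal length (350 gained regions, 308 genes with one and 213 with more summits). Beyond list length and the number of libraries, the cause was not tested.

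By deviations from the line means over 4445 genes, the replicate numbers did not pair the samples. These deviations correlated at 0.253, −0.337 and −0.426 for replicates 1, 2 and 3, and D312A replicate 3 correlated best with EGFP replicate 2, at 0.466. Summits shared within 100 nt gave another picture. D312A replicates 1 and 3 shared most with the EGFP library of the same number, at 67.6% and 65.3%. D312A replicate 2 shared 58.5% with EGFP replicate 2 and 64.4% with EGFP replicate 3. With the replicate block, comparing same-numbered libraries, 474 genes had fewer and 28 more summits; the block left the mean differences of −2840 summits and 6.0 METTL14 summits as they were, with an exact p of 0.25 each, the smallest that 8 swaps allow. Depth is unknown, and a summit missing from a list is not evidence that the site was unmodified.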

Other observations

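Genes with more summits in D312A that the text has not yet described include APOBEC3C, a cytidine deaminase of antiviral defence, with 1, 1 and 1 summits in D312A, 0 in every R298P and WT library and 0, 0 and 0 in EGFP. SEC23A had 1, 1 and 1 in D312A, 0, 0 and 0 in R298P and 0, 1 and 0 in WT, against 0, 0 and 0 in EGFP. SERBP1, an mRNA-binding protein of ribosomes, had 2, 2 and 2 in D312A and 1, 1 and 1 in EGFP, and FAM111B, a protease, 4, 2 and 2 in D312A and 1, 1 and 1 in EGFP. All 4 overlapped between the lines with lists of equal length. Of the genes with fewer summits called only with the deposited lists, TRAPPC12, a vesicle tethering protein, had 3, 0 and 3 in D312A and 9, 4 and 5 in EGFP, and RNF213, a large ubiquitin ligase, had 4, 4 and 6 in D312A and 8, 7 and 8 in EGFP. These genes were chosen after their values were seen.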
